A study of Mus musculus with 18 samples.

Results

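The genes described here are 34 mouse genes of glycolysis and of the transcriptional response to low oxygen, chosen by name for their known roles. Earlier results of these data were known when the genes were chosen. They comprise 15 glycolytic enzymes, the glucose importer Slc2a1 and the lactate exporter Slc16a3, 3 regulators of flux (Pfkfb3, Pfkfb4 and Pdk1), 13 hypoxia targets outside glycolysis, and Hif1a, which encodes the oxygen-sensitive subunit of hypoxia-inducible factor 1. Of the 34, 30 had a probe set annotated to that gene alone, out of 12394 such genes on the array. Bnip3l had probe sets shared with a pseudogene, and Gpi1, Eno1 and Pfkfb4 are not analysed here because the platform annotation used here pairs no probe set with them.

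Transcript levels were compared between SV40-immortalised mouse embryonic fibroblasts (MEFs) with 1 intact copy of the thymine DNA glycosylase gene (Tdg+/-) and MEFs with none (Tdg-/-), on 3 Affymetrix arrays per genotype. All cells of both genotypes carried the SV40 immortalisation and grew in DMEM with fetal calf serum, penicillin and streptomycin; the labels state no oxygen tension or glucose level. Each genotype was 1 clone, clone 4 for Tdg+/- and clone 9 for Tdg-/-, so genotype and clone cannot be told apart. Separate cultures are not stated for the arrays of a genotype. The p-values therefore rest on the spread between arrays, which may be technical.

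Glycolysis splits glucose into pyruvate in the cytosol, and lactate dehydrogenase then reduces pyruvate to lactate, which regenerates the cofactor that the pathway consumes. Hypoxia-inducible factor 1 is degraded in normal oxygen after prolyl hydroxylases of the Egln family mark its alpha subunit. When oxygen falls it binds DNA at a short core motif and raises most genes of glycolysis, together with genes of mitochondrial turnover, blood vessel growth and collagen processing. Fibroblasts in culture and cells transformed by viral oncoproteins are known to rely on glycolysis also in normal oxygen.

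Values are log2 expression as deposited, and values for 3 arrays are given in the order of replicates 1, 2 and 3. A gene was said to rise or fall when its limma p-value, adjusted over all 12394 genes, was under 0.05. In that fit 7 of the 30 measured members rose in Tdg-/- MEFs, where 2.52% of all genes did, and 1 fell, where 1.32% did. Over all genes 312 rose and 163 fell, and after quantile normalization 335 and 268. The median log2 difference was 0.38 over the 30 members and -0.019 over all genes.

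Tdg+/- replicate 1 stood apart. It correlated at 0.962 and 0.953 with the other Tdg+/- arrays, whose correlation with each other was 0.996. Its SD over all probe sets was 1.70 against 1.81 to 1.90 on the other arrays; its added hybridisation controls averaged 8.59 against 8.99 to 9.22, and its poly-A controls 5.33 against 4.83 to 4.92. For 22 of the 30 members it lay below both other Tdg+/- arrays, and for 4 above both, with a median difference of -0.29 against -0.07 over all genes. Without it, 17 members rose, where 14.1% of all genes did, and 2 fell, where 7.87% did. The 3′ and 5′ control probe sets of Gapdh differed by -0.11 to 0.11 on all arrays and those of Actb by -0.13 to 0.16. Tdg, the deleted gene, was lower on every Tdg-/- array, with 6.42, 6.12 and 6.48 against 8.87, 8.87 and 9.24 in the probe set that differed most (6.30-fold, adjusted p = 0.000726 over all probe sets). Its 3 probe sets are all annotated to Tdg pseudogenes as well.

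The cells carried fibroblast transcripts such as Vim, which averaged 13.27 in Tdg+/- and 13.36 in Tdg-/- MEFs, and Col1a1, which averaged 12.83 and 12.99. Of 11 fibroblast markers, 5 fell in Tdg-/- MEFs (Col1a2, Col3a1, Thy1, Pdgfra and Dcn), where 1.32% of all genes did. None rose and 6 did not pass. Col3a1, Thy1 and Pdgfra passed without any 1 array, Col1a2 and Dcn not without Tdg+/- replicate 2 or any 1 Tdg-/- array. Fitted differences were above 0 for 4 of the 11 and below for 7. Pdgfrb was 2.17-fold higher without passing (adjusted p = 0.0592), and it rose 1.81-fold without Tdg+/- replicate 1 (adjusted p = 9.95e-05). The array means of the list ran from 10.72 to 10.81 in Tdg+/- and from 10.34 to 10.44 in Tdg-/- MEFs. Of the markers of other cell types, none of 5 epithelial, 4 blood, 5 pluripotent or 5 muscle genes passed in limma (1, a muscle gene, at an unadjusted p under 0.05, and 0 with a trended robust variance), and 1 of 4 endothelial genes fell (Kdr, which passed with all arrays and without Tdg+/- replicate 1 but not with another array left out). Without Tdg+/- replicate 1, where 14.1% of all genes rose, the epithelial gene Cdh1 was 1.34-fold higher (limma adjusted p = 0.00813). The array means of those lists lay between 5.79 and 6.98. Single genes stood above these means, such as Kdr at 8.95 and Utf1 at 8.14 on average in Tdg+/- MEFs. The endothelial and muscle lists were lower on all Tdg-/- arrays than on all Tdg+/- arrays, while the epithelial, blood and pluripotent lists overlapped. In bulk samples fewer cells of a type and less RNA per cell cannot be told apart. Whether the differences in fibroblast markers bear on the members was not tested.

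Promoter sequences of the changed members are shown because these genes are known targets of 1 factor with a short motif. Bhlhe40, Bnip3l and Ndrg1 had no entry. The hypoxia response core was searched as ACGTG and GCGTG on both strands in the 250 bases before each gene start of RefSeq (GRCm38.p6), and matches are in capitals; where the palindrome CACGTG occurs the 2 strands' matches overlap and both count. The core was found in 38 of 47 start sites of the 31 members that have an entry (80.9%) and in 38.6% of all 32851 starts. Of the 6 risen members with an entry 5 had a match, as did Adm, which fell, and all 21 members with an entry that were measured and did not pass, each in at least 1 start. A match is a description of letters and not a binding site, and members that changed and members that did not both carried it. Shown are Bnip3 and Ldha, whose starts hold 5 matches each (the first of the Ldha starts), Pgk1 with 2, Adm as the member that fell, and Tpi1 as a risen member with no match in this window.
Bnip3, chr7:138909507-138909756, minus strand: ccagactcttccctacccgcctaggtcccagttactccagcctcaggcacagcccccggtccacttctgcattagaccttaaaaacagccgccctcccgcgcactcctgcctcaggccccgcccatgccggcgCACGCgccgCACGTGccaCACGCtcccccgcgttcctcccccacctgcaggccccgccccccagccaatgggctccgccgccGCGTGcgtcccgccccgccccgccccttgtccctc
Ldha, chr7:46845554-46845803, plus strand: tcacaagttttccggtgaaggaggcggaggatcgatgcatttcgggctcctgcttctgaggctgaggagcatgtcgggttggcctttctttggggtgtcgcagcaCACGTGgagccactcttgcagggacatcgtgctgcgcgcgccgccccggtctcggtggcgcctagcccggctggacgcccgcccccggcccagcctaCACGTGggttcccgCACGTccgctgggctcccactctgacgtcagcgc
Pgk1, chrX:106186850-106187099, plus strand: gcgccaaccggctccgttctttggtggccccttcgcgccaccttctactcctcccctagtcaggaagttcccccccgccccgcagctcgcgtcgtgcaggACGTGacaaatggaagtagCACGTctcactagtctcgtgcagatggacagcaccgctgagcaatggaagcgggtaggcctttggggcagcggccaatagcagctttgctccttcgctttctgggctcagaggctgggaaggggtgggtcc
Adm, chr7:110627407-110627656, plus strand: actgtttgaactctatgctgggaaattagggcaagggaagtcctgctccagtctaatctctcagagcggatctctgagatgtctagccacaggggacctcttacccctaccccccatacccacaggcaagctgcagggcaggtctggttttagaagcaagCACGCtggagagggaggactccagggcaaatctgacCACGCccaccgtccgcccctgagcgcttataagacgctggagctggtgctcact
Tpi1, chr6:124814159-124814408, minus strand: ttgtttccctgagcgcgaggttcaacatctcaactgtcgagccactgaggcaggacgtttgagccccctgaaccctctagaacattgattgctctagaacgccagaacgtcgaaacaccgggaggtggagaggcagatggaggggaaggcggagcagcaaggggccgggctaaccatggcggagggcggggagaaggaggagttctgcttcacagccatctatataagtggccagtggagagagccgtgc

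The enzymes of glycolysis were compared step by step. Of 13 measured enzymes 5 rose in Tdg-/- MEFs (Pfkl, Aldoa, Tpi1, Pgk1 and Ldha), where 2.52% of all genes did. None fell and 8 did not pass. The fitted difference was above 0 for 12 of the 13, with a median of 0.42 on the log2 scale. For 11 enzymes all 3 Tdg-/- arrays lay above all 3 Tdg+/- arrays, as they did for 22.6% of all genes. Averaged over the 13 enzymes, the arrays stood at -0.12, 0.03 and 0.10 in Tdg+/- and at 0.42, 0.42 and 0.47 in Tdg-/- MEFs, relative to the Tdg+/- mean. Without Tdg+/- replicate 1 the median was 0.40 and 11 of the 13 passed, all of them higher, in a fit where 14.1% of all genes rose.

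**Figure D1:**
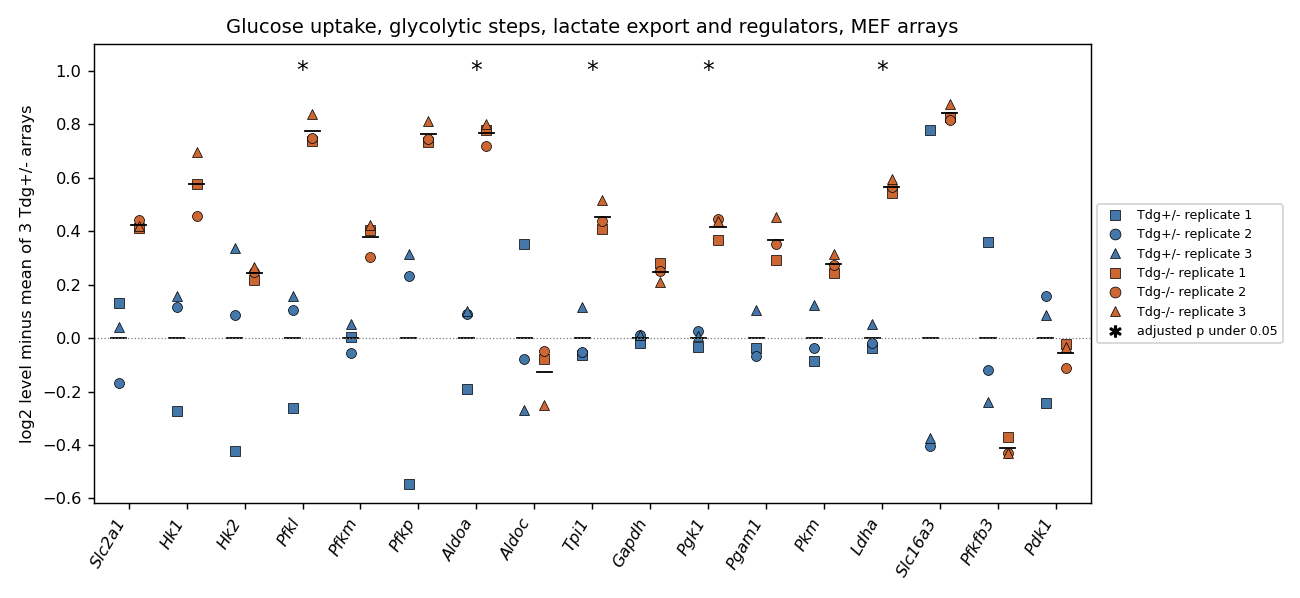
Level of each gene on each MEF array, as log2 minus the mean of the 3 Tdg+/- arrays, for glucose uptake, the glycolytic steps in order, lactate export and 2 regulators; blue is Tdg+/-, orange is Tdg-/-, marker shape is the replicate, bars are group means and asterisks mark an adjusted p under 0.05. The Tdg-/- arrays lie above all Tdg+/- arrays for 11 of the 13 enzymes and for both transporters, and Hk2 and Aldoc overlap. Tdg+/- replicate 1 lies below both other Tdg+/- arrays for 10 of the 13 enzymes and above both for 1. It lies furthest below them for Hk1, Hk2, Pfkl and Pfkp.

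Many of these transcripts are bright, and bright genes as a whole leaned upward. Among the 590 genes with a mean level of at least 11, 73.4% had a fitted difference above 0, against 47.9% of all genes, and their median was 0.104 with all arrays and 0.058 without Tdg+/- replicate 1. Of these bright genes 3.39% rose and 2.54% fell; without Tdg+/- replicate 1 the shares were 14.4% and 6.78%. The 7 members at that level (Aldoa, Tpi1, Gapdh, Pgk1, Pgam1, Pkm and Ldha) had differences from 0.25 to 0.77 with a median of 0.42. Of these 7 genes 4 rose, and 7 without Tdg+/- replicate 1.

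Slc2a1 encodes GLUT1, the main glucose importer of fibroblasts. It read 9.09, 8.79 and 9.00 on the Tdg+/- arrays and 9.37, 9.40 and 9.38 on the Tdg-/- arrays. The groups did not overlap, but the difference of 0.42 ± 0.10 (log2, SE; adjusted p = 0.0776) did not pass. Of its other probe sets, 1 rose 1.51-fold when all 22690 probe sets were fitted (adjusted p = 0.0339) and 1 was 1.95-fold higher without passing (adjusted p = 0.0561). Slc2a1 passed in 3 of 14 alternative analyses. It rose 1.40-fold without Tdg+/- replicate 1 (adjusted p = 0.000653) and by 0.66 (log2) with the mean of its probe sets (adjusted p = 0.017). It also passed with genes of below-median level left out (adjusted p = 0.0426). In the other analyses its adjusted p-values reached up to 0.319.

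Hexokinases phosphorylate glucose and so trap it in the cell. Hk1, the widely expressed form, read 9.15, 9.54 and 9.58 on the Tdg+/- arrays and 10.00, 9.88 and 10.12 on the Tdg-/- arrays, a difference of 0.57 ± 0.14 (log2, SE; adjusted p = 0.0825). Its groups did not overlap, and without Tdg+/- replicate 1 it rose 1.35-fold (adjusted p = 0.00191). Hk2, the inducible form, read 9.22, 9.73 and 9.98 on the Tdg+/- arrays and 9.86, 9.89 and 9.91 on the Tdg-/- arrays. Here the 3 Tdg-/- values lay inside the Tdg+/- range, with a difference of 0.25 ± 0.19 (log2, SE; adjusted p = 0.389), and without Tdg+/- replicate 1 the difference was 0.03 (95% interval -0.15 to 0.22). Whether the 2 hexokinases differed in their response was not tested.

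Phosphofructokinase commits the sugar to glycolysis and is built from liver, muscle and platelet subunits. Pfkl, the liver type, read 9.50, 9.87 and 9.92 on the Tdg+/- arrays and 10.50, 10.51 and 10.60 on the Tdg-/- arrays. It rose 1.71-fold, by 0.77 ± 0.13 (log2, SE; adjusted p = 0.0281), with no overlap between the groups. Its other probe set had a difference of 0.39 and did not pass. Pfkl did not pass without Tdg+/- replicate 2 (adjusted p = 0.101) or without any 1 Tdg-/- array (0.137, 0.161 and 0.172).

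Pfkm, the muscle type, read 9.07, 9.01 and 9.12 on the Tdg+/- arrays and 9.47, 9.37 and 9.49 on the Tdg-/- arrays. Its groups were tight and did not overlap, yet the difference of 0.38 ± 0.09 (log2, SE; adjusted p = 0.0661) did not pass. Pfkp, the platelet type, read 6.77, 7.55 and 7.63 on the Tdg+/- arrays and 8.05, 8.06 and 8.13 on the Tdg-/- arrays. The Tdg-/- arrays were all higher, and Tdg+/- replicate 1 lay far below its partners; the difference was 0.76 ± 0.22 (log2, SE; adjusted p = 0.124). A second Pfkp probe set had overlapping groups and a difference of 0.16. Both subunits passed without Tdg+/- replicate 1, Pfkm at 1.30-fold (adjusted p = 0.00338) and Pfkp at 1.40-fold (adjusted p = 0.000377).

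Aldolase cleaves fructose bisphosphate into a pair of triose phosphates. Aldoa, the form of muscle and most dividing cells, read 11.21, 11.49 and 11.50 on the Tdg+/- arrays and 12.18, 12.12 and 12.20 on the Tdg-/- arrays. It rose 1.70-fold, by 0.77 ± 0.11 (log2, SE; adjusted p = 0.0148), and the Tdg-/- arrays stood well above the Tdg+/- arrays. All 4 Aldoa probe sets rose when all probe sets were fitted together, by 0.64 to 0.84. Aldoc, the brain form, read 6.88, 6.45 and 6.26 on the Tdg+/- arrays and 6.45, 6.48 and 6.28 on the Tdg-/- arrays, with overlapping groups and a difference of -0.13 ± 0.17 (log2, SE; adjusted p = 0.606); its mean level was at percentile 23.1 of all genes. Aldoa did not pass without Tdg+/- replicate 2 (adjusted p = 0.0660) or any 1 Tdg-/- array (0.0953 to 0.111).

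Tpi1 interconverts the triose phosphates, so that both products of aldolase can go on. It read 11.55, 11.56 and 11.73 on the Tdg+/- arrays and 12.02, 12.05 and 12.13 on the Tdg-/- arrays. All Tdg-/- values were higher, a 1.37-fold rise of 0.45 ± 0.09 (log2, SE; adjusted p = 0.0489) that only just passed. Its other probe sets were 1.35-fold and 1.86-fold higher, and with all probe sets fitted none of the 3 passed. It did not pass without Tdg+/- replicate 2 (adjusted p = 0.187) or any 1 Tdg-/- array (0.192 to 0.255).

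Gapdh, the dehydrogenase of the next step and a common reference gene, read 13.18, 13.21 and 13.21 on the Tdg+/- arrays and 13.48, 13.45 and 13.41 on the Tdg-/- arrays in the middle control probe set. The groups did not overlap, but the difference was small and did not pass, at 0.25 ± 0.08 (log2, SE; adjusted p = 0.141). The 5′ and 3′ control probe sets were 1.13-fold and 1.16-fold higher, and 2 probe sets annotated to further genes as well 1.13-fold and 1.38-fold. In all 5 the Tdg-/- arrays lay above the Tdg+/- arrays, and none passed. Gapdh passed without Tdg+/- replicate 1, at 1.18-fold (adjusted p = 0.0369).

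Pgk1, phosphoglycerate kinase and the first step to yield ATP, read 12.36, 12.42 and 12.40 on the Tdg+/- arrays and 12.76, 12.84 and 12.83 on the Tdg-/- arrays. It rose 1.34-fold, by 0.42 ± 0.08 (log2, SE; adjusted p = 0.0405), with little spread within either genotype. Its other probe sets were 1.22-fold and 1.26-fold higher without passing. Pgk1 did not pass without Tdg+/- replicate 2 (0.149), without Tdg+/- replicate 3 (0.0634) or without any 1 Tdg-/- array (0.173 to 0.238, adjusted p).

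Pgam1, the mutase that follows, read 11.04, 11.01 and 11.18 on the Tdg+/- arrays and 11.37, 11.43 and 11.53 on the Tdg-/- arrays, a difference of 0.37 ± 0.09 (log2, SE; adjusted p = 0.0893). Pkm, pyruvate kinase of muscle and dividing cells, read 12.21, 12.26 and 12.42 on the Tdg+/- arrays and 12.54, 12.57 and 12.61 on the Tdg-/- arrays, a difference of 0.28 ± 0.09 (log2, SE; adjusted p = 0.150). Neither passed, although in both the Tdg-/- arrays lay above all Tdg+/- arrays. Both passed without Tdg+/- replicate 1, with adjusted p-values of 0.00800 and 0.0474.

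Ldha, which turns pyruvate to lactate, read 11.67, 11.69 and 11.76 on the Tdg+/- arrays and 12.25, 12.27 and 12.30 on the Tdg-/- arrays. It rose 1.48-fold, by 0.57 ± 0.08 (log2, SE; adjusted p = 0.0155), and the genotypes were far apart compared with the spread within each. Ldha did not pass without Tdg+/- replicate 2 (adjusted p = 0.0948) or any 1 Tdg-/- array (0.101 to 0.134). Slc16a3 encodes MCT4, which exports the lactate. It read 8.89, 7.71 and 7.74 on the Tdg+/- arrays and 8.94, 8.93 and 8.99 on the Tdg-/- arrays. Tdg+/- replicate 1 was near the Tdg-/- level while its partners were lower by more than 1 on the log2 scale, and the difference of 0.84 ± 0.31 (log2, SE; adjusted p = 0.185) did not pass. Without that array Slc16a3 rose 2.35-fold (adjusted p = 3.07e-08), in a fit where 14.1% of all genes rose. That was the only 1 of 14 alternative analyses in which Slc16a3 passed, with adjusted p-values up to 0.476 in the others.

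The fitted differences of both measured regulators were below 0, and neither passed. Pfkfb3 makes and breaks down the activator of phosphofructokinase, and read 7.43, 6.95 and 6.83 on the Tdg+/- arrays and 6.70, 6.64 and 6.64 on the Tdg-/- arrays. The Tdg-/- arrays were all lower, as for 16.8% of all genes, with a difference of -0.41 ± 0.16 (log2, SE; adjusted p = 0.203). Its other probe set overlapped and had a difference of 0.15, so the probe sets disagreed in direction. Pdk1, which keeps pyruvate out of the mitochondrion by inhibiting pyruvate dehydrogenase, read 7.49, 7.89 and 7.82 on the Tdg+/- arrays and 7.71, 7.62 and 7.70 on the Tdg-/- arrays, an overlap with a difference of -0.06 ± 0.12 (log2, SE; adjusted p = 0.743). Without Tdg+/- replicate 1 Pfkfb3 fell by 0.23 on the log2 scale (adjusted p = 0.0469), and Pdk1 still did not pass.

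Among the hypoxia targets outside glycolysis members moved in both directions. Of 12 measured targets Bnip3 and Bhlhe40 rose, Adm fell and 9 did not pass, where 2.52% of all genes rose and 1.32% fell. Fitted differences ran from -1.59 to 1.01 with a median of 0.29, against -0.13 to 0.77 with a median of 0.42 for the enzymes; the difference between the medians was not tested. The Tdg-/- arrays lay above all Tdg+/- arrays for 6 of the 12, where 22.6% of all genes did so, and below for 2, where 16.8% did. Without Tdg+/- replicate 1 the median was 0.22, 4 targets rose (Bnip3, Mxi1, Bhlhe40 and Ddit4), Adm fell and 7 did not pass. In that fit 14.1% of all genes rose and 7.87% fell. Averaged over the 12 targets, which include Adm, the arrays stood at -0.24, 0.09 and 0.14 in Tdg+/- and at 0.17, 0.25 and 0.27 in Tdg-/- MEFs.

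**Figure D2:**
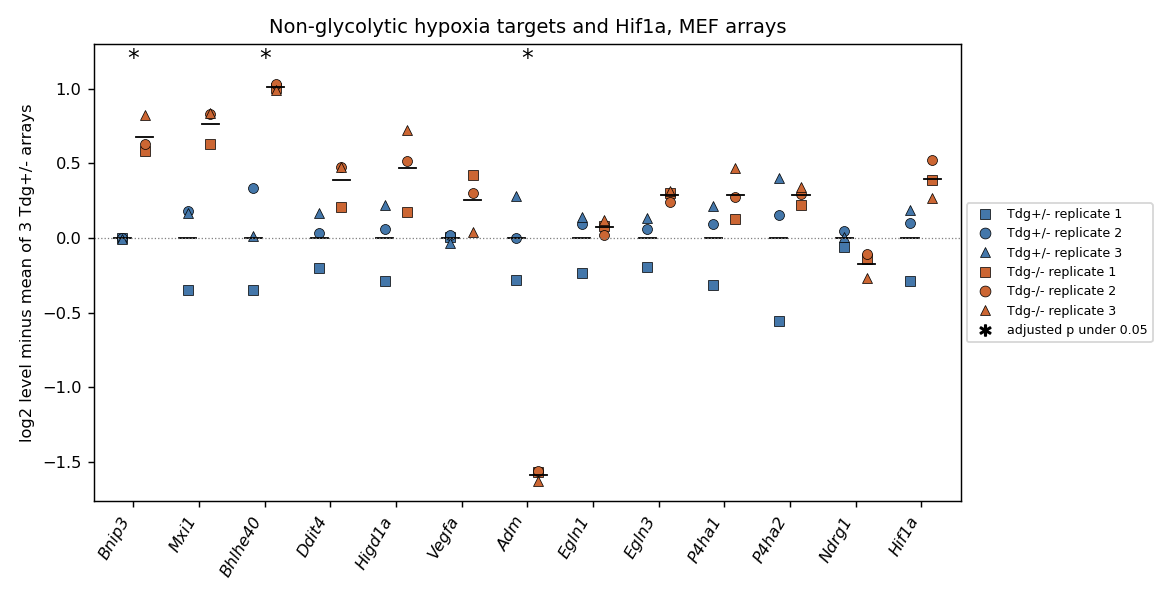
Level of each non-glycolytic hypoxia target and of Hif1a on each MEF array, as log2 minus the mean of the 3 Tdg+/- arrays, with colours, markers, bars and asterisks for genotype, replicate, group mean and adjusted p under 0.05. Bnip3 and Bhlhe40 rise, Adm lies about 1.59 below the Tdg+/- mean, and Egln1, P4ha1, P4ha2 and Higd1a overlap between genotypes.

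Bnip3 encodes a protein of the outer mitochondrial membrane that promotes removal of mitochondria. It read 8.59, 8.59 and 8.58 on the Tdg+/- arrays and 9.17, 9.22 and 9.41 on the Tdg-/- arrays. The Tdg+/- arrays were almost identical, Tdg+/- replicate 1 included, and the gene rose 1.60-fold, by 0.68 ± 0.10 (log2, SE; adjusted p = 0.0151). It did not pass without Tdg+/- replicate 2 (adjusted p = 0.0868) or any 1 Tdg-/- array (0.0743 to 0.103).

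Bnip3l, its paralogue with the same function, was measured only by probe sets that are also annotated to a Bnip3l pseudogene, so its values are uncertain. The one with the smallest spread in Tdg+/- read 8.46, 8.61 and 8.67 on the Tdg+/- arrays and 9.14, 9.12 and 9.28 on the Tdg-/- arrays, and it rose 1.51-fold with all probe sets fitted (adjusted p = 0.0316). The others were 2.01-fold and 1.96-fold higher without passing (adjusted p = 0.211 and 0.159). In these Tdg+/- replicate 1 lay more than 1 below its partners on the log2 scale. All 3 probe sets had every Tdg-/- array above every Tdg+/- array.

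Bhlhe40 encodes a basic helix-loop-helix repressor that responds to hypoxia and to the circadian clock. It read 7.97, 8.65 and 8.33 on the Tdg+/- arrays and 9.32, 9.35 and 9.31 on the Tdg-/- arrays. The rise was 2.02-fold, by 1.01 ± 0.17 (log2, SE; adjusted p = 0.0277), with almost identical Tdg-/- arrays and a wider spread in Tdg+/-. It did not pass without Tdg+/- replicate 3 (adjusted p = 0.0577) or any 1 Tdg-/- array (0.137 to 0.161). Mxi1, a partner of Max that opposes Myc, read 8.08, 8.61 and 8.60 on the Tdg+/- arrays and 9.06, 9.26 and 9.27 on the Tdg-/- arrays. Its groups did not overlap, and the difference of 0.77 ± 0.16 (log2, SE; adjusted p = 0.0563) missed the threshold; a second Mxi1 probe set overlapped, with a difference of 0.05.

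Ddit4, an inhibitor of mTORC1 signalling under stress, read 8.87, 9.11 and 9.24 on the Tdg+/- arrays and 9.28, 9.55 and 9.55 on the Tdg-/- arrays, a difference of 0.39 ± 0.13 (log2, SE; adjusted p = 0.158). The groups nearly touched, and it did not pass. Higd1a, a small protein of the inner mitochondrial membrane, read 8.91, 9.26 and 9.42 on the Tdg+/- arrays and 9.37, 9.71 and 9.92 on the Tdg-/- arrays. Its groups overlapped, with a difference of 0.47 ± 0.18 (log2, SE; adjusted p = 0.206). Its other probe sets had differences of 0.02 and -0.05.

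Adm encodes adrenomedullin, a secreted vasodilator peptide, and was the member with the largest change. It read 8.76, 9.04 and 9.32 on the Tdg+/- arrays and 7.47, 7.48 and 7.41 on the Tdg-/- arrays. Every Tdg-/- array was more than 1 below every Tdg+/- array, and Adm fell 3.00-fold, a difference of -1.59 ± 0.15 (log2, SE; adjusted p = 0.00313). It was the only risen or fallen member that passed in all 14 alternative analyses, with adjusted p-values from 6.20e-09 to 0.0361. Vegfa, the angiogenic growth factor and like Adm a classical hypoxia target, read 8.77, 8.78 and 8.73 on the Tdg+/- arrays and 9.18, 9.06 and 8.80 on the Tdg-/- arrays. Its lowest Tdg-/- array lay only just above the highest Tdg+/- array, and the difference of 0.25 ± 0.12 (log2, SE; adjusted p = 0.248) did not pass; its other probe set was 1.96-fold higher, also without passing (adjusted p = 0.113).

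The oxygen sensors themselves did not pass. Egln1, the main prolyl hydroxylase of the alpha subunit, read 9.22, 9.55 and 9.60 on the Tdg+/- arrays and 9.54, 9.48 and 9.58 on the Tdg-/- arrays. The groups overlapped, with a difference of 0.08 ± 0.12 (log2, SE; adjusted p = 0.663) and a 95% interval of -0.21 to 0.37. Egln3, which is itself induced by hypoxia, read 6.59, 6.85 and 6.92 on the Tdg+/- arrays and 7.09, 7.03 and 7.10 on the Tdg-/- arrays, a difference of 0.28 ± 0.11 (log2, SE; adjusted p = 0.199); its other probe set overlapped at -0.03. The sign of the Egln1 difference depended on the analysis.

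The collagen prolyl hydroxylase subunits also overlapped. P4ha1 read 8.91, 9.32 and 9.44 on the Tdg+/- arrays and 9.35, 9.50 and 9.69 on the Tdg-/- arrays, with a difference of 0.29 ± 0.16 (log2, SE; adjusted p = 0.305). P4ha2 read 7.74, 8.45 and 8.70 on the Tdg+/- arrays and 8.52, 8.59 and 8.64 on the Tdg-/- arrays, with a difference of 0.29 ± 0.24 (log2, SE; adjusted p = 0.412). In both, Tdg+/- replicate 1 was the lowest array, and without it the differences were 0.13 and 0.01. Ndrg1, a stress-responsive gene that hypoxia raises in many cell types, read 8.53, 8.64 and 8.60 on the Tdg+/- arrays and 8.45, 8.48 and 8.32 on the Tdg-/- arrays. All Tdg-/- arrays were lower, but the difference of -0.17 ± 0.09 (log2, SE; adjusted p = 0.280) did not pass, and 1 of its 5 probe sets pointed the other way.

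Hif1a read 9.95, 10.34 and 10.43 on the Tdg+/- arrays and 10.63, 10.76 and 10.51 on the Tdg-/- arrays. The Tdg-/- arrays lay above the Tdg+/- arrays by a small margin, and the difference of 0.39 ± 0.15 (log2, SE; adjusted p = 0.190) did not pass with or without Tdg+/- replicate 1 (adjusted p = 0.0562). Of its 4 probe sets 3 had a difference above 0 and 1 below, from -0.12 to 0.39. The factor is controlled mainly through protein stability, which these arrays do not measure.

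**Figure D3:**
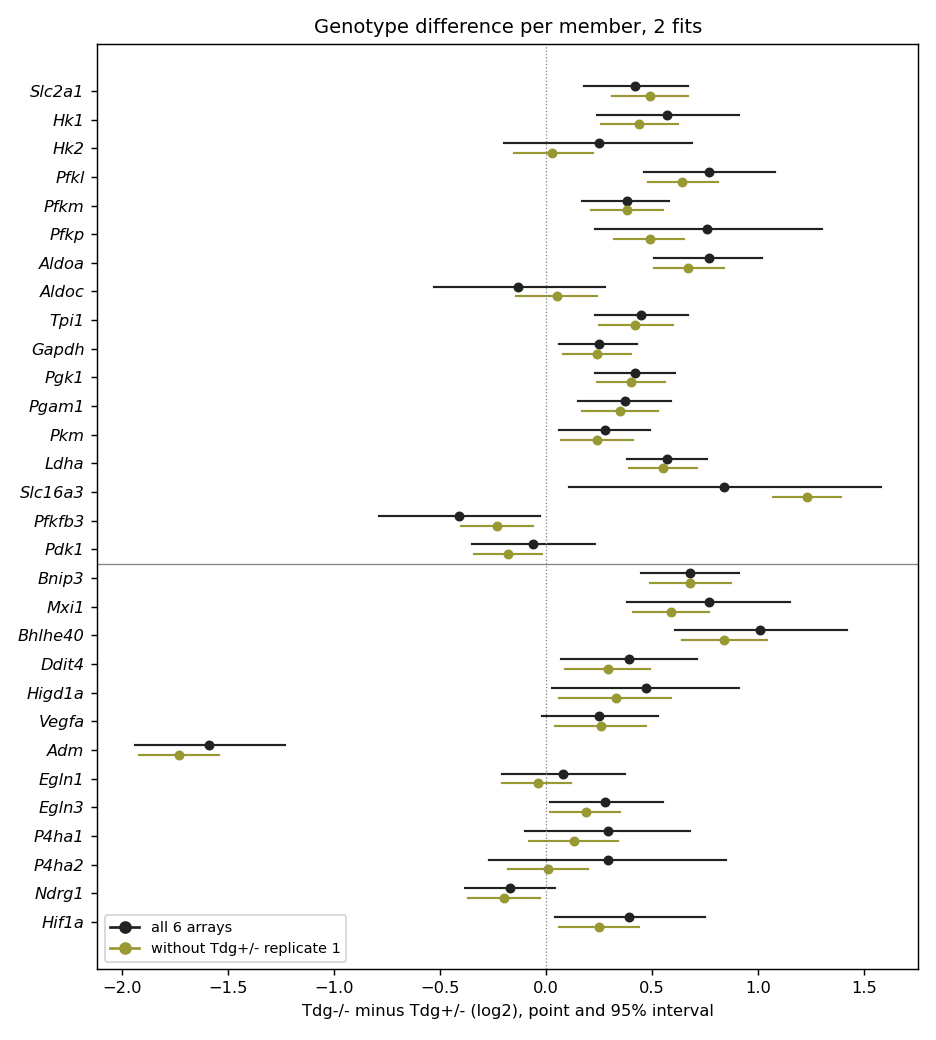
Genotype difference of each measured member (Tdg-/- minus Tdg+/-, log2) with its 95% interval, from the fit of all 6 arrays (black) and without Tdg+/- replicate 1 (olive); glycolysis members stand above the line and the other targets and Hif1a below. Slc16a3 moves from 0.84 to 1.23, P4ha2 from 0.29 to 0.01 and Hk2 from 0.25 to 0.03, while Bnip3 stays at 0.68.

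Leaving out Tdg+/- replicate 1 narrowed the intervals of the members, and the points moved little for Bnip3, Ldha, Pgk1, Pfkm and Gapdh. The enzymes Hk2 and Aldoc remained not past the threshold in that fit, as did the targets Vegfa, Egln1, Egln3, Ndrg1, P4ha1, P4ha2 and Higd1a. Any rise of a glycolytic enzyme was lost when Tdg+/- replicate 2 or any 1 Tdg-/- array was left out: none of the 13 then passed in limma (9 or 10 at an unadjusted p under 0.05; a trended robust variance, run only with all 6 arrays, called 7), although the median difference stayed between 0.41 and 0.44. Over all genes the number of changed genes then fell too, from 475 to between 95 and 129.

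Probe sets of the same gene were also compared. Of 61 probe sets annotated to a single member, 48 had a difference above 0 and 13 below. These include the 30 that stand for the measured members, and all were read on the same 6 arrays, so the count is not independent of the main fit. Of 19 members with more than 1 such probe set, 12 showed 1 direction throughout: Hk1, Pfkl, Pfkp, Aldoa, Tpi1, Gapdh, Pgk1, Slc2a1, Vegfa, P4ha1 and Mxi1 above 0, and Aldoc below. The 7 that disagreed were Pfkfb3, Pdk1, Egln1, Egln3, Ndrg1, Higd1a and Hif1a, none of which passed.

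**Figure D4:**
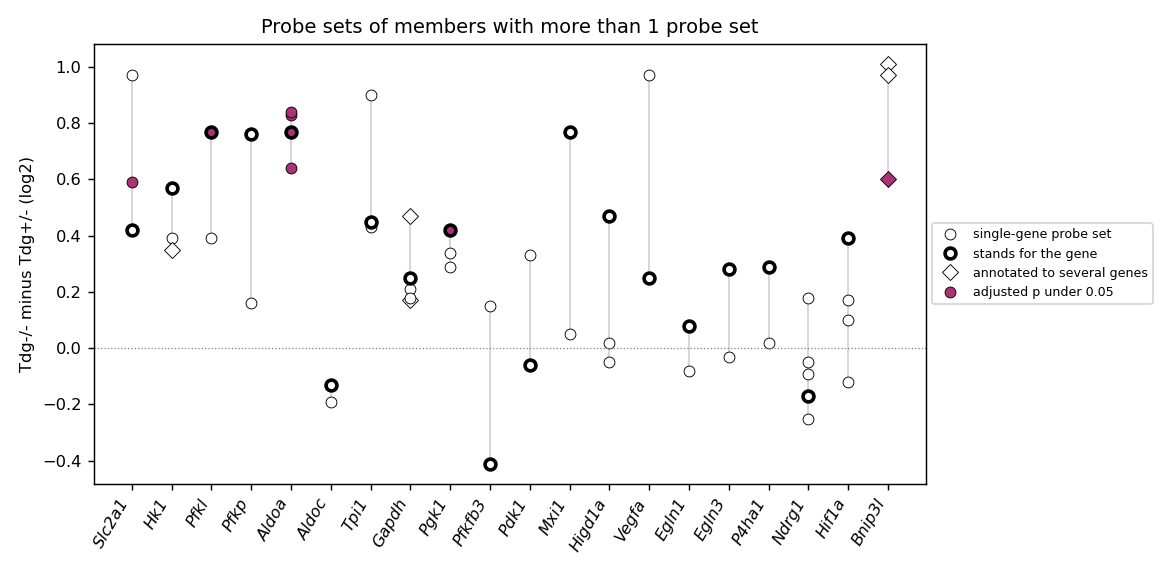
Genotype difference (Tdg-/- minus Tdg+/-, log2) of every probe set of members with more than 1 probe set; diamonds are annotated to several genes, a heavy outline marks the probe set that stands for the gene and a filled symbol an adjusted p under 0.05 over all probe sets. All 4 Aldoa probe sets are filled and lie from 0.64 to 0.84, while those of Hif1a and Ndrg1 straddle 0.

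Neighbouring pathways were read from lists chosen by function. Of 16 measured further glycolysis genes, which include tissue-restricted isoforms, 3 rose and 13 did not pass, with a list median of -0.05. Without Tdg+/- replicate 1 the median was -0.03, and 4 rose, 1 fell and 11 did not pass, where 14.1% of all genes rose and 7.87% fell. The values that follow are from all 6 arrays, where 2.52% of all genes rose and 1.32% fell. Bpgm, which makes bisphosphoglycerate from a glycolytic intermediate, rose 2.36-fold (adjusted p = 0.00204), Eno3, the muscle enolase, 2.46-fold (adjusted p = 0.00717), and Ldhb, the lactate dehydrogenase subunit of heart, 1.33-fold (adjusted p = 0.0407). Bpgm passed without any 1 array, Eno3 not without Tdg-/- replicate 2 (adjusted p = 0.0533), and Ldhb, with 1 array left out, only without Tdg+/- replicate 1. Of 6 gluconeogenesis genes Pck2, the mitochondrial phosphoenolpyruvate carboxykinase, rose 1.43-fold (adjusted p = 0.0308) and 5 did not pass. Of 6 pentose phosphate genes Taldo1, transaldolase, rose 1.61-fold (adjusted p = 0.0480) and 5 did not pass; neither Pck2 nor Taldo1 passed without Tdg+/- replicate 2 or any 1 Tdg-/- array.

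Pyruvate entry into the mitochondrion held the largest change among these lists. Pdk4, a starvation-induced kinase that inhibits pyruvate dehydrogenase, read 5.72, 5.87 and 6.18 on the Tdg+/- arrays and 7.83, 7.84 and 7.83 on the Tdg-/- arrays. It rose 3.76-fold (adjusted p = 0.000932) and passed without any 1 array, whereas its paralogue Pdk1 overlapped between the genotypes. The other 7 of 8 measured genes of pyruvate entry did not pass, and the list median was 0.42 with all arrays but 0.18 without Tdg+/- replicate 1. Fitted differences were above 0 for 8 of the 8 genes with all arrays and for 6 without that array. Of 16 citrate cycle genes Sdha rose 1.34-fold (adjusted p = 0.0466) and 15 did not pass, with a median of 0.25 that was 0.16 without Tdg+/- replicate 1. Of 36 respiratory chain genes Uqcrc2 rose 1.74-fold (adjusted p = 0.0407) and 35 did not pass, where 2.52% of all genes rose. The respiratory chain median was 0.16, and 0.10 without Tdg+/- replicate 1. All 36 fitted differences were above 0 with all arrays and 30 without that array; the share above 0 among bright genes was 73.4% and 64.7%, and among all genes 47.9% and 44.2%. With 1 array left out, Sdha and Uqcrc2 passed only where that array was Tdg+/- replicate 1.

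Of 33 further hypoxia targets, 2 rose, 1 fell and 30 did not pass, with a median of 0.11. In that fit of all 6 arrays 2.52% of all genes rose and 1.32% fell. Without Tdg+/- replicate 1, where 14.1% of all genes rose and 7.87% fell, 7 of them rose, 5 fell and 21 did not pass, with a median of 0.09. Stc1, which encodes the hormone stanniocalcin 1, rose 2.12-fold (adjusted p = 0.00715), and Tfrc, the transferrin receptor, 1.59-fold (adjusted p = 0.0283). Lox, the secreted enzyme that crosslinks collagen, fell 1.60-fold (adjusted p = 0.0245); hypoxia is known to raise it. Stc1 did not pass without Tdg-/- replicate 1 (adjusted p = 0.0585), Tfrc without Tdg+/- replicate 2 or any 1 Tdg-/- array, and Lox with any array but Tdg+/- replicate 1 left out. None of 11 genes of the factor's own machinery passed in limma (5 at an unadjusted p under 0.05, 1 with a trended robust variance), with Eloc, a subunit of the ubiquitin ligase that degrades the factor, at a difference of 0.52 (adjusted p = 0.0652), and Cul2, its scaffold, at 0.29 (adjusted p = 0.159). None of 9 regulators of sugar sensing and growth passed (2 at an unadjusted p under 0.05, 1 with a trended robust variance). Among them the Myc relative Mycn stood at 0.30 (adjusted p = 0.103) and Txnip, an inhibitor of glucose uptake, at -0.32 (adjusted p = 0.216).

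**Figure D5:**
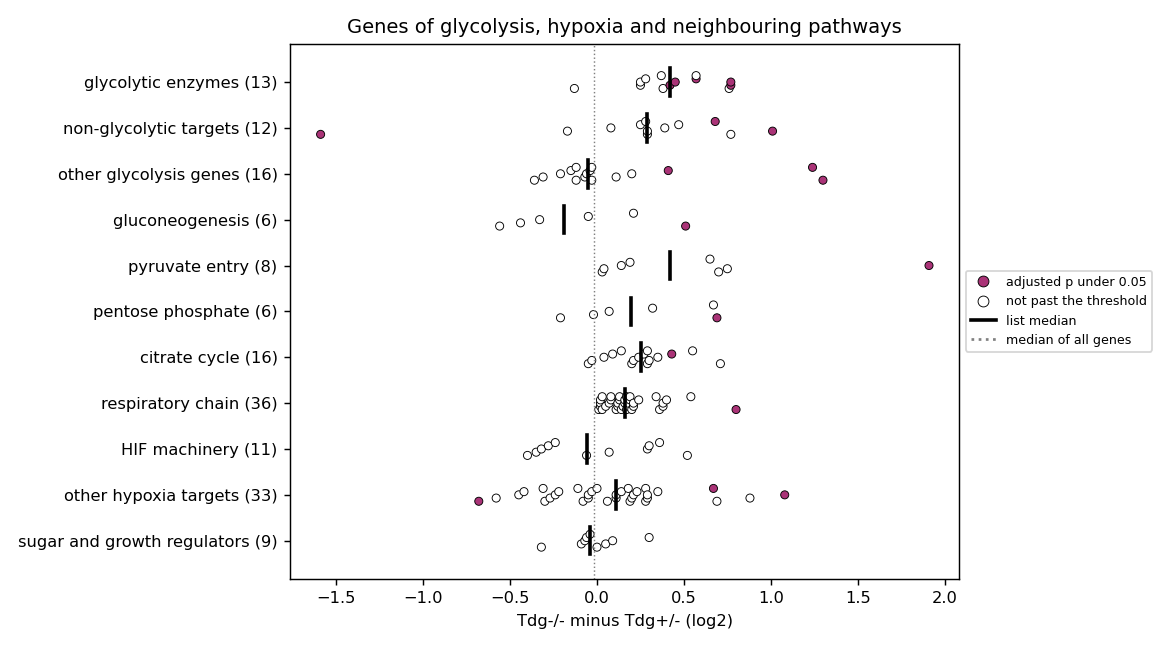
Genotype difference (Tdg-/- minus Tdg+/-, log2) of each measured gene of the glycolytic enzymes, the non-glycolytic targets and 9 neighbouring lists, with the number of measured genes in parentheses; filled points have an adjusted p under 0.05, thick bars are list medians and the dotted line is the median of all genes, -0.019. The enzymes centre at 0.42, further glycolysis genes at -0.05, and Adm is the lowest point at -1.59 and Pdk4 the highest at 1.91.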

How the data were processed

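The authors' deposited MEF table holds log2 expression for 22690 Affymetrix probe sets on 6 arrays. Per the submitters' processing notes, MAS5, RMA, affy and limma were used; the sources used here do not say which of them gave the values or how arrays were normalized. No detection calls were used, and the number of arrays limits precision. Both tables of ES and NP cells were not used here.

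The platform annotation named 20393 probe sets with 1 gene, 691 with several and 1606 with none; symbols were checked through gene identifiers against RefSeq (GRCm38.p6), which matched 20364. The single-gene probe set with the highest mean stood for its gene, and Gapdh control probe sets were kept. Genotypes were compared over 12394 genes with limma 3.58.1 in R 4.3.3 (lmFit, eBayes), with Benjamini-Hochberg adjustment and a threshold of 0.05. Intervals are 95%. Levels of different probe sets were not compared, since they share no common scale.

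Members, lists and tests were chosen with earlier results of these data known; no test was made over a list. Named genes were all members, Tdg, markers, and from each neighbouring list up to 4 changed genes, or up to 2 with the smallest adjusted p where none changed. The procedure was also run on simulated data. Their spread was taken without Tdg+/- replicate 1, so that run cannot show how the fit behaves with that array. Promoters came from RefSeq (GRCm38.p6).

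Alternatives were quantile normalization, leaving out genes of below-median level, a fit over all probe sets, other probe rules, a replicate block, a trended robust variance, a loess correction of Tdg+/- replicate 1 (span 0.4), and leaving out each array. A restriction to genes of level 11 or more was added after the data were seen.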

Additional observations from a re-analysis of the deposited data

How the results depend on the processing

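Of 409 combinations of a member and an alternative, 339 kept direction and side of the threshold, 39 no longer passed, 23 came to pass and 8 changed sign, all 8 for members that did not pass: Aldoc without Tdg+/- replicate 1 (0.05, log2; range -0.26 to 0.05 with 1 array left out), Pfkfb3 with plain probe sets only (0.15), Pdk1 with the mean of its probe sets (0.13) and without Tdg+/- replicate 2 (0.02; range -0.18 to 0.02), and Egln1 with quantile normalization (-0.10), the mean of its probe sets (-0.0028), the loess correction (-0.03) and without Tdg+/- replicate 1 (-0.04). Against 475 genes changed in all, the count was 237 with the replicate block, 788 with the loess correction, and 95 to 2722 with 1 array left out. At level 11 or more it was 35, and 125 without Tdg+/- replicate 1. Members changed numbered 13 with dim genes left out, 3 with plain probe sets (23 then measured), 3 with the replicate block and 1 to 19 with 1 array left out, against 8. Enzymes changed numbered 8 with dim genes left out, 2 with the mean of probe sets, 1 with the replicate block and 0 to 11 with 1 array left out, against 5. With plain probe sets 0 of 7 measured enzymes passed (5 at an unadjusted p under 0.05 in limma). A trended robust variance was not run on these probe sets. Pfkl, Aldoa, Tpi1 and Ldha have no plain probe set, so this setting says nothing about their rises. Of the risen enzymes it measured only Pgk1, which did not pass (0.29, log2, limma adjusted p = 0.122). Changed non-glycolytic targets numbered 1 to 5 with 1 array left out, against 3. The enzyme median was 0.33 with quantile normalization, against 0.42 over the 13 enzymes. It was 0.28 with plain probe sets, over 7 enzymes only. The target median was 0.22 to 0.44 with 1 array left out. Of the changed genes 65.7% rose, against 55.6% with quantile normalization (335 up, 268 down), 75.8% with dim genes left out (447 up, 143 down) and 52.3% to 71.4% with 1 array left out. The cause of these shifts was not tested.

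The replicate numbers mark no shared culture in the labels, and for that reason they were not taken as pairs. Deviations from the group mean correlated at 0.33, 0.008 and 0.366 between same-numbered arrays. Between differently numbered arrays of the 2 genotypes they correlated at -0.395 to 0.15. Whether the numbers mark a shared batch was not tested. With the replicate block only Adm (adjusted p = 0.017), Aldoa and Bhlhe40 (both 0.0499) passed in limma among the members.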
